A study of Mus musculus with 9 samples.

Results

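The lipoprotein and lipid efflux genes described here are the listed members of a group of 10 genes: the apolipoproteins Apoe, Apoc1 and Apod, the receptors Apobr and Lrp1, the lipase Lpl, the efflux transporters Abca1 and Abcg1, the lipid droplet gene Plin2 and the nuclear receptor gene Nr1h3. They were chosen by name, with earlier results of these data known, and 8 of the 10 were among the 15228 genes of the RPKM table. Apoc1 and Apod were not analysed here. The cells were sorted as retinal ganglion cells (RGCs), the neurons whose axons form the optic nerve, from wild-type C57BL/6J mice that were 6 to 8 weeks old at surgery. The gate kept cells with CD90.2 and without CD48, CD15 and CD57. Ctrl cells came from intact retinas with no injury, ONC cells from retinas 3 d after optic nerve crush with an intraocular injection of PBS, and TPEN cells from retinas 3 d after the crush with an injection of the zinc chelator TPEN given right after it. Each of the 3 groups had 3 libraries. ONC and TPEN thus share the crush and an injection into the eye, and the Ctrl retinas had no crush. No injection is stated for Ctrl, so comparisons with Ctrl (ONC/Ctrl and TPEN/Ctrl) cannot tell the crush from the injection. The sources used here do not state whether different mice gave the libraries of each group, so p-values measure the spread between these libraries, which may be technical.

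Cholesterol and other lipids move between retinal cells on lipoprotein particles, and apolipoprotein E is the main protein of such particles in neural tissue, where glia make most of it. The transporters ABCA1 and ABCG1 load lipid onto apolipoproteins, receptors such as LRP1 take the particles up, and lipid that is not exported is kept in droplets coated by perilipins such as PLIN2. The liver X receptor LXRα, the product of Nr1h3, is switched on by oxysterols and raises transcription of Abca1, Abcg1 and Apoe.

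Ctrl libraries held 20077226 to 23109754 reads, ONC libraries 22967138 to 22986065 and TPEN libraries 19946993 to 22217283. The RGC markers Rbpms, Slc17a6 and Pou4f1 ranked 13805, 14020 and 14252 of 15228 genes by mean RPKM, Nefl ranked 153, and the rod gene Gnat1 ranked 2. The RGC markers named here were all below Gnat1. Of the 10 listed RGC markers, 7 had a mean of at least 0.5 RPKM, and Rbpms, Slc17a6 and Pou4f1 did not. In Ctrl the 10 RGC markers summed to 334 to 344 RPKM, and 7 listed rod markers to 18825 to 19639 RPKM. In such bulk libraries, fewer cells of a type and less RNA per cell cannot be told apart. The sum of the 16 listed microglia and macrophage markers was 10.3 to 10.5 RPKM in Ctrl, 79.5 to 83.9 in ONC and 39.6 to 41.6 in TPEN.

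Apoe, Apobr, Plin2 and Lrp1 rose in ONC/Ctrl. Apoe, Apobr and Plin2 fell with TPEN, while the transporters Abca1 and Abcg1 and the regulator Nr1h3 did not pass the test in ONC/Ctrl or TPEN/ONC. Differences were tested with limma on log2(RPKM + 0.1) across the 13566 genes whose mean reached 0.5 RPKM, and a gene passed at an adjusted p under 0.05. Of the members, 7 were in that fit. Because the members were chosen with earlier results of these data known, their counts beside the shares of all genes are a description, not a test. In ONC/Ctrl, 4 of the 7 rose, where 11.7% of all genes tested rose and 6.97% fell. Of these 4, Apobr was under 0.5 RPKM in Ctrl and was in the fit through its higher levels in the crush groups. With limma, 0 of the 7 fell, with 0 at an unadjusted p under 0.05 and 0 by voom on the whole reads. Apobr, Apoe and Plin2 also changed at least 1.5-fold, so 3 members were upregulated DEGs, against 4.58% of all genes upregulated and 0.752% downregulated. In TPEN/ONC, 3 of the 7 fell, and all 3 changed at least 1.5-fold. There, 4.14% of all genes fell and 3.24% rose, and 1.21% were downregulated and 0.818% upregulated DEGs. No member rose with TPEN by limma (0, with 0 at an unadjusted p under 0.05 and 0 by voom). In TPEN/Ctrl, Apobr rose, at least 1.5-fold, and Abcg1 fell, by less than 1.5-fold. Of all genes in TPEN/Ctrl, 8.36% rose and 5.01% fell, and 3.45% were upregulated and 0.457% downregulated DEGs. ONC/Ctrl and TPEN/ONC share the ONC libraries, so a rise in the first and a fall in the second are not independent.

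**Figure D1:**
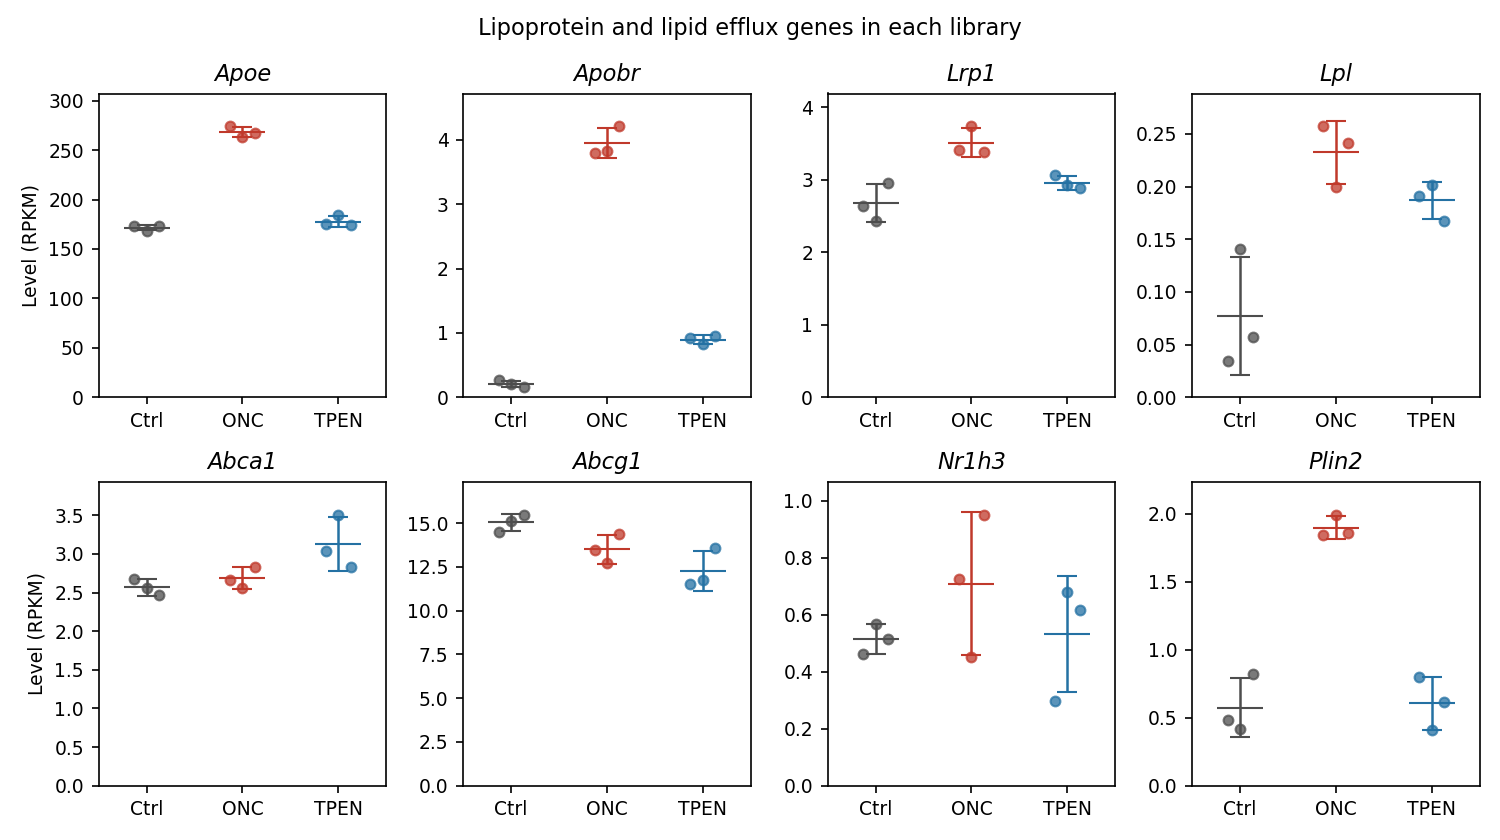
The level of each of the 8 listed members (y axis, RPKM, starting at 0 and scaled per gene) in each library (points) of Ctrl, ONC and TPEN, with the group mean (horizontal line) and SD (error bar, n = 3). Apoe and Plin2 were high in the 3 ONC libraries and lay near Ctrl in TPEN, Apobr was at an intermediate level in TPEN, and the highest Abca1 and lowest Abcg1 values were in TPEN libraries.

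Apoe, on chromosome 7 (19696109 to 19699188, minus strand, GRCm38), was by far the most abundant member and ranked 180 of 15228 genes by mean RPKM, with 7443 to 13489 reads per library. The Ctrl libraries had 173.0, 168.4 and 173.7 RPKM, the ONC libraries 274.5, 263.8 and 266.9 RPKM, and the TPEN libraries 174.9, 184.1 and 174.5 RPKM. All ONC libraries lay above all others, and the TPEN libraries lay just above the Ctrl range without touching it. The means were 172 ± 2.85 RPKM in Ctrl, 268 ± 5.48 in ONC and 178 ± 5.42 in TPEN (SD, n = 3). On the log2 scale Apoe changed by 0.64 in ONC/Ctrl (SE, the standard error, 0.029, limma adjusted p = 4.5e-07) and -0.59 in TPEN/ONC (SE 0.029, limma adjusted p = 3.9e-06). In TPEN/Ctrl it was 0.05, with a 95% confidence interval of -0.015 to 0.12 (limma adjusted p = 0.311). The fall of Apoe lay close to 1.5-fold, and was just below it without ONC replicate 1 (-0.578), TPEN replicate 1 (-0.582) or TPEN replicate 3 (-0.581) and after quantile normalization (-0.581), which leaves 2 of the 7 members as downregulated DEGs.

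The other listed apolipoprotein with a clear signal was Clu, the gene of clusterin (apolipoprotein J), which glia secrete. It was at 30.6 ± 2.77 RPKM in Ctrl, 47.0 ± 2.49 in ONC and 48.4 ± 1.76 in TPEN (SD, n = 3). Clu had a log2 fold change of 0.62 in ONC/Ctrl (limma adjusted p = 1.4e-04), near the 0.64 of Apoe, and of 0.04 in TPEN/ONC (limma adjusted p = 0.760). The log2 ratio of Apoe to Clu was therefore compared directly, as 1 of 4 ratios chosen after their values were seen. It was 2.49 ± 0.149 in Ctrl, 2.51 ± 0.0908 in ONC and 1.88 ± 0.0139 in TPEN (SD, n = 3; exact permutation test over the 3 groups, two-sided, p = 0.0286, Benjamini-Hochberg adjusted over the 4 ratios 0.0381). The difference between TPEN and ONC was -0.64, with all TPEN libraries below all ONC libraries and an exact p of 0.1, the smallest that 3 against 3 libraries allow. Apoh, the only other gene of the 12 in the list of further apolipoproteins that was listed in the table, did not pass in any comparison.

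Of the receptors, Apobr changed most. It encodes a receptor through which macrophages take up triglyceride-rich lipoproteins, and lies on chromosome 7 (126584942 to 126589112, plus strand). Its level was 0.260, 0.206 and 0.158 RPKM in the Ctrl libraries, 3.80, 3.83 and 4.22 RPKM in the ONC libraries and 0.914, 0.822 and 0.955 RPKM in the TPEN libraries, from 12 to 22, 330 to 366 and 69 to 72 reads. No group overlapped another. The means were 0.208 ± 0.0508, 3.95 ± 0.234 and 0.897 ± 0.0682 RPKM (SD, n = 3), so that the ratio of the means was 19.0 in ONC/Ctrl, 0.227 in TPEN/ONC and 4.31 in TPEN/Ctrl. On the log2(RPKM + 0.1) scale, which makes the change of so low a gene smaller, the log2 fold changes were 3.73 in ONC/Ctrl (limma adjusted p = 1.3e-07), -2.02 in TPEN/ONC (limma adjusted p = 4.3e-05) and 1.71 in TPEN/Ctrl (limma adjusted p = 5.3e-05), each with an SE of 0.14. With a pseudocount of 1 RPKM they were 2.03, -1.38 and 0.65. The Ctrl level of Apobr was below the 0.5 RPKM of the filter, which it passed through its higher levels in the crush groups, above all ONC. In the fit without the filter, the limma adjusted p of Apobr was 1.1e-07 in ONC/Ctrl and 3.5e-05 in TPEN/ONC. Apobr shares 442 of its 3779 exon bases (11.7%) with Cln3 on the opposite strand, a gene of a lysosomal membrane protein, and the sources used here do not state whether strand was used in counting. Cln3 was at 2.10 ± 0.196 RPKM in Ctrl, 3.07 ± 0.133 in ONC and 2.15 ± 0.319 in TPEN (SD, n = 3). The log2 ratio of Apobr to Cln3 went from -3.36 ± 0.417 in Ctrl to 0.36 ± 0.146 in ONC and -1.25 ± 0.279 in TPEN (SD, n = 3; exact permutation test over the 3 groups, two-sided, p = 0.00357, adjusted over the 4 ratios 0.00714). That p is the smallest the test allows, and this ratio, too, was chosen after its values were seen.

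Lrp1, the gene of a large endocytic receptor that binds apolipoprotein E particles, lies on chromosome 10 (127538161 to 127621148, minus strand). The Ctrl libraries had 2.63, 2.43 and 2.96 RPKM, the ONC libraries 3.41, 3.74 and 3.38 RPKM, and the TPEN libraries 3.07, 2.93 and 2.88 RPKM. The ONC libraries were above all others, and TPEN overlapped Ctrl. The log2 fold change of Lrp1 was 0.38 in ONC/Ctrl (SE 0.089, limma adjusted p = 0.0141), below 1.5-fold, and it missed the threshold without Ctrl replicate 2 (adjusted p = 0.0511) or ONC replicate 2 (adjusted p = 0.0575). In TPEN/ONC it was -0.24 (95% confidence interval -0.44 to -0.040, limma adjusted p = 0.147), which passed with voom on the whole reads (adjusted p = 0.0069, range over the alternatives 0.0069 to 0.344). In TPEN/Ctrl it was 0.14 (limma adjusted p = 0.342).

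Among the other 14 lipoprotein and scavenger receptor genes tested, Trem2 and Scarb2 rose in ONC/Ctrl and Vldlr fell, with a median log2 fold change of -0.01 against 0.02 for all genes. Trem2, a receptor of microglia that binds lipids and apolipoprotein E, was at 0.108 ± 0.0607 RPKM in Ctrl, 0.880 ± 0.0468 in ONC and 0.565 ± 0.113 in TPEN (SD, n = 3). Its Ctrl level was far below the 0.5 RPKM of the filter, which Trem2 passed only through its higher levels in the crush groups, above all ONC. Trem2 had a log2 fold change of 2.28 in ONC/Ctrl (SE 0.24, limma adjusted p = 1.4e-04) and 1.71 in TPEN/Ctrl (limma adjusted p = 0.00128), and in TPEN/ONC it was -0.57 (limma adjusted p = 0.199). In TPEN/ONC, 1 of the 14 receptor genes rose, Lrp2, an endocytic receptor gene.

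Lpl encodes lipoprotein lipase, which releases fatty acids from circulating particles, and lies on chromosome 8 (68880491 to 68907448, plus strand). It was the lowest member, with 8 to 34 reads in Ctrl, 48 to 62 in ONC and 35 to 47 in TPEN, and its mean of 0.166 RPKM over the 9 libraries was under the filter. The Ctrl libraries had 0.0341, 0.140 and 0.0570 RPKM, the ONC libraries 0.257, 0.199 and 0.241 RPKM, and the TPEN libraries 0.191, 0.202 and 0.167 RPKM. Both crush groups lay above Ctrl and overlapped each other, and Ctrl replicate 2 was the highest of its group. In the fit without the filter, the log2 fold change of Lpl was 0.95 in ONC/Ctrl (SE 0.22, limma adjusted p = 0.0128), -0.21 in TPEN/ONC (95% confidence interval -0.70 to 0.28, limma adjusted p = 0.632) and 0.74 in TPEN/Ctrl (limma adjusted p = 0.0531). With a pseudocount of 1 RPKM the first of these was 0.20. In TPEN/Ctrl Lpl passed without Ctrl replicate 2 (0.98, adjusted p = 0.0103) and with voom (1.47, adjusted p = 0.00609), within a range over the alternatives of 0.00609 to 0.160. Of the 4 other lipase and lipoprotein remodelling genes tested, Mgll, the gene of monoacylglycerol lipase, fell by 0.50 on the log2 scale in ONC/Ctrl (limma adjusted p = 0.0331). This was lost without ONC replicate 2 (-0.41, limma adjusted p = 0.110) and without Ctrl replicate 1, Ctrl replicate 2, Ctrl replicate 3 or ONC replicate 1 (adjusted p of 0.0904, 0.0670, 0.0820 and 0.0898). Pltp, the gene of phospholipid transfer protein and an LXR target, had a log2 fold change of 0.74 in ONC/Ctrl (limma adjusted p = 0.120) and -0.82 in TPEN/ONC (limma adjusted p = 0.138). With voom both passed (adjusted p = 0.0386 and 0.0463), within ranges over the alternatives of 0.0386 to 0.333 and 0.0463 to 0.327, and the first also passed without Ctrl replicate 3 (1.01, adjusted p = 0.0468). The mean of Pltp was 0.461 RPKM in Ctrl, 0.815 in ONC and 0.430 in TPEN. It thus passed the 0.5 RPKM filter only through ONC, the group where it was high.

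Plin2 encodes perilipin 2, a coat protein of lipid droplets, and lies on chromosome 4 (86648386 to 86670060, minus strand). The Ctrl libraries had 0.483, 0.419 and 0.823 RPKM, the ONC libraries 1.85, 2.00 and 1.86 RPKM, and the TPEN libraries 0.798, 0.410 and 0.614 RPKM. The ONC libraries were above all others, and TPEN and Ctrl overlapped over most of their ranges. The means were 0.575 ± 0.217, 1.90 ± 0.0831 and 0.607 ± 0.194 RPKM (SD, n = 3). Plin2 had log2 fold changes of 1.61 in ONC/Ctrl (SE 0.25, limma adjusted p = 0.00154), -1.54 in TPEN/ONC (SE 0.25, limma adjusted p = 0.00611) and 0.08 in TPEN/Ctrl, where the 95% confidence interval was -0.48 to 0.64 (limma adjusted p = 0.885). With a pseudocount of 1 RPKM, the first of these was 0.89 and the second -0.86.

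Of the 15 other genes of lipid droplets and sterol esters, Fabp5 and Plin3 rose in ONC/Ctrl and Acsl3 and Fabp4 fell, with a median log2 fold change of 0.02. Fabp5, the gene of a fatty acid binding protein, was at 2.97 ± 0.479 RPKM in Ctrl, 8.20 ± 0.443 in ONC and 3.30 ± 0.142 in TPEN (SD, n = 3). Fabp5 had a log2 fold change of 1.45 in ONC/Ctrl (limma adjusted p = 1.5e-05) and -1.29 in TPEN/ONC (limma adjusted p = 1.5e-04). Fabp5 was the only gene of this list to fall with TPEN by limma. Plin3, which codes for another perilipin, was at 0.831 ± 0.0792, 1.74 ± 0.400 and 1.08 ± 0.257 RPKM (SD, n = 3). Plin3 had a log2 fold change of 0.96 in ONC/Ctrl (limma adjusted p = 0.00892), and in TPEN/ONC it was -0.64 (limma adjusted p = 0.0990), which passed with voom (adjusted p = 0.0494, range over the alternatives 0.0494 to 0.265). The log2 ratio of Plin2 to Plin3 was -0.59 ± 0.611 in Ctrl, 0.15 ± 0.323 in ONC and -0.86 ± 0.334 in TPEN, and these did not pass a test of their difference (SD, n = 3; exact permutation test over the 3 groups, two-sided, p = 0.121, adjusted over the 4 ratios 0.121).

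The efflux transporters moved little. Abca1, on chromosome 4 (53030787 to 53159895, minus strand), encodes the transporter that loads lipid onto lipid-poor apolipoproteins. Its level was 2.68, 2.56 and 2.47 RPKM in the Ctrl libraries, 2.66, 2.56 and 2.84 RPKM in the ONC libraries and 3.04, 3.51 and 2.83 RPKM in the TPEN libraries. Ctrl and ONC overlapped, and all TPEN libraries were above Ctrl. For Abca1 the log2 fold change was 0.06 in ONC/Ctrl, with a 95% confidence interval of -0.15 to 0.27 (limma adjusted p = 0.707). In TPEN/ONC it was 0.21 (limma adjusted p = 0.237). In TPEN/Ctrl it was 0.27 (SE 0.094, limma adjusted p = 0.0952), which passed with voom (adjusted p = 0.0128, range over the alternatives 0.0128 to 0.258).

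Abcg1, on chromosome 17 (31057698 to 31115777, plus strand), encodes a transporter that passes sterol to lipid-loaded particles, and was the most abundant member after Apoe. The Ctrl libraries had 14.5, 15.1 and 15.5 RPKM, the ONC libraries 13.4, 12.7 and 14.4 RPKM, and the TPEN libraries 11.5, 11.7 and 13.6 RPKM. All ONC and TPEN libraries were below all Ctrl libraries, and the crush groups overlapped each other. For Abcg1 the log2 fold change was -0.15 in ONC/Ctrl (95% confidence interval -0.31 to 0.0019, limma adjusted p = 0.163), -0.14 in TPEN/ONC (limma adjusted p = 0.276) and -0.30 in TPEN/Ctrl (SE 0.070, limma adjusted p = 0.0212). The last was lost without Ctrl replicate 2, Ctrl replicate 3, TPEN replicate 1 or TPEN replicate 2, with adjusted p of 0.0611, 0.0661, 0.0727 and 0.0726. The log2 ratio of Abca1 to Abcg1 was -2.55 ± 0.108 in Ctrl, -2.33 ± 0.0161 in ONC and -1.97 ± 0.265 in TPEN (SD, n = 3; exact permutation test over the 3 groups, two-sided, p = 0.00357, adjusted over the 4 ratios 0.00714). That p is the smallest the test allows, and this ratio was chosen after its values were seen. Each pair of groups had an exact permutation p of 0.1, the smallest that 3 against 3 libraries allow. Of the 12 other ABC lipid transporters tested, 3 fell in ONC/Ctrl, each by less than 1.5-fold: Abca4, the retinoid flippase of photoreceptors (-0.18, limma adjusted p = 0.00230), Abcd2 (-0.39, limma adjusted p = 0.0204) and Abcg4. Abcd2 was lost without Ctrl replicate 1, Ctrl replicate 2, ONC replicate 1 or ONC replicate 3 (adjusted p of 0.0602, 0.0700, 0.0508 and 0.0671). The median of the 12 was -0.09. In TPEN/ONC, 1 of the 12 rose, Abca4 (0.13, limma adjusted p = 0.0294), which was lost without Ctrl replicate 1, TPEN replicates 1 or 3 or any ONC replicate (adjusted p of 0.0511 to 0.101).

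Nr1h3, on chromosome 2 (91184061 to 91202834, minus strand), was low and uneven. The Ctrl libraries had 0.461, 0.568 and 0.515 RPKM, the ONC libraries 0.727, 0.450 and 0.952 RPKM, and the TPEN libraries 0.298, 0.680 and 0.618 RPKM. All 3 groups overlapped. For Nr1h3 the log2 fold change was 0.35 in ONC/Ctrl (95% confidence interval -0.32 to 1.02, limma adjusted p = 0.468) and -0.37 in TPEN/ONC (95% confidence interval -1.03 to 0.30, limma adjusted p = 0.526), so a 1.5-fold rise in the first and a 1.5-fold fall in the second lay within the intervals.

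**Figure D2:**
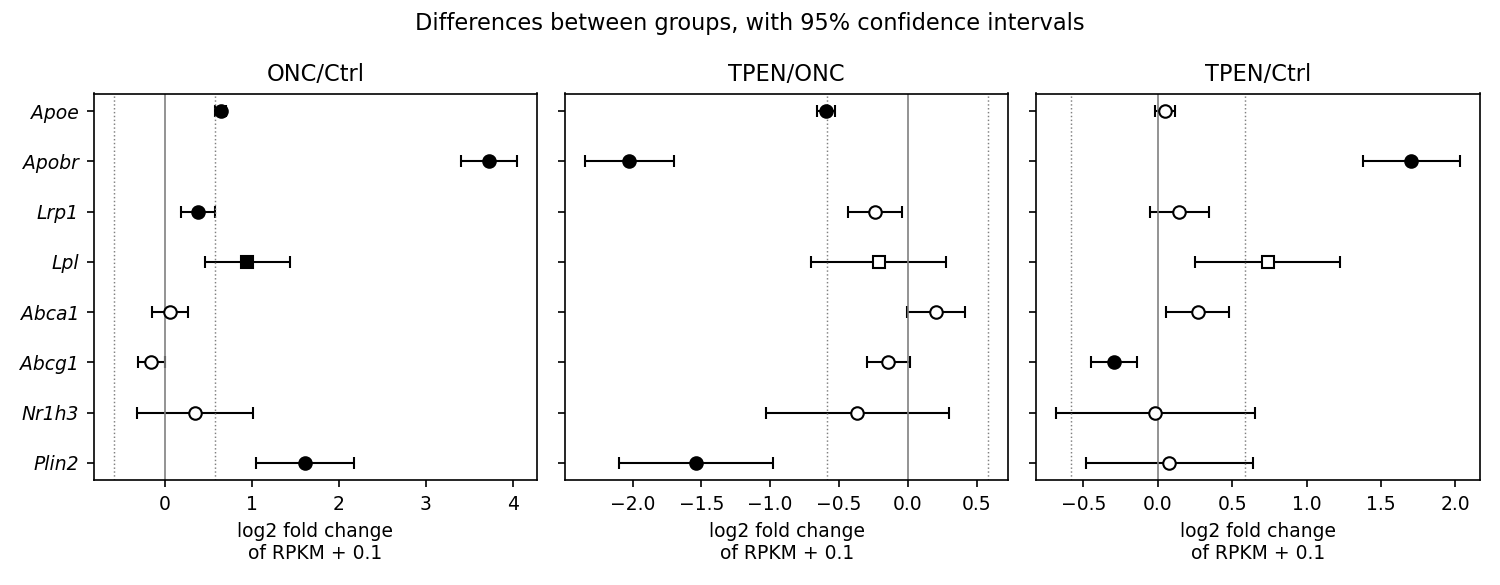
The log2 fold change of RPKM + 0.1 (x axis, 1 panel per comparison with its own scale) of each listed member, with its 95% confidence interval. Filled symbols passed an adjusted p under 0.05, the square is Lpl from the fit without the filter on low genes, and dotted lines mark a 1.5-fold change. In ONC/Ctrl Apobr (3.73) and Plin2 (1.61) lie far to the right, while Abca1 (0.06) and Abcg1 (-0.15) lie near 0.

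Of the 11 LXR partners and targets tested beside the members, Arl4c rose and Rxrg fell in ONC/Ctrl, with a median log2 fold change of 0.03. Arl4c, a small GTPase gene and LXR target, had a log2 fold change of 0.71 in ONC/Ctrl (limma adjusted p = 0.00648) and 0.65 in TPEN/Ctrl (limma adjusted p = 0.0141). The latter missed the threshold without Ctrl replicate 1 (adjusted p = 0.0521). Rxrg, which codes for the retinoid X receptor γ, was at 1.42 ± 0.287 RPKM in Ctrl, 0.575 ± 0.152 in ONC and 0.867 ± 0.0578 in TPEN (SD, n = 3), with a log2 fold change of -1.18 in ONC/Ctrl (limma adjusted p = 0.00221) and 0.54 in TPEN/ONC (limma adjusted p = 0.135). In TPEN/ONC, 1 of the 11 rose, Srebf1, the gene of a regulator of fatty acid synthesis. Of the 10 genes of intracellular cholesterol export and its regulators, Ppard rose (0.23, limma adjusted p = 0.0182) and Ppargc1a fell (-0.24, limma adjusted p = 0.00628) in ONC/Ctrl, both by less than 1.5-fold. Ppard was lost without ONC replicate 3, Ctrl replicate 1 or Ctrl replicate 2 (adjusted p of 0.0664, 0.0687 and 0.0604) and after quantile normalization (adjusted p = 0.0501). Ppargc1a, the gene of a coactivator of oxidative metabolism, rose by 0.19 in TPEN/ONC (limma adjusted p = 0.0483), which was lost without any single library but ONC replicate 3 (adjusted p of 0.0574 to 0.156), in the fit of the 6 libraries compared (adjusted p = 0.0848) and with the replicate number as a block (adjusted p = 0.0839).

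**Figure D3:**
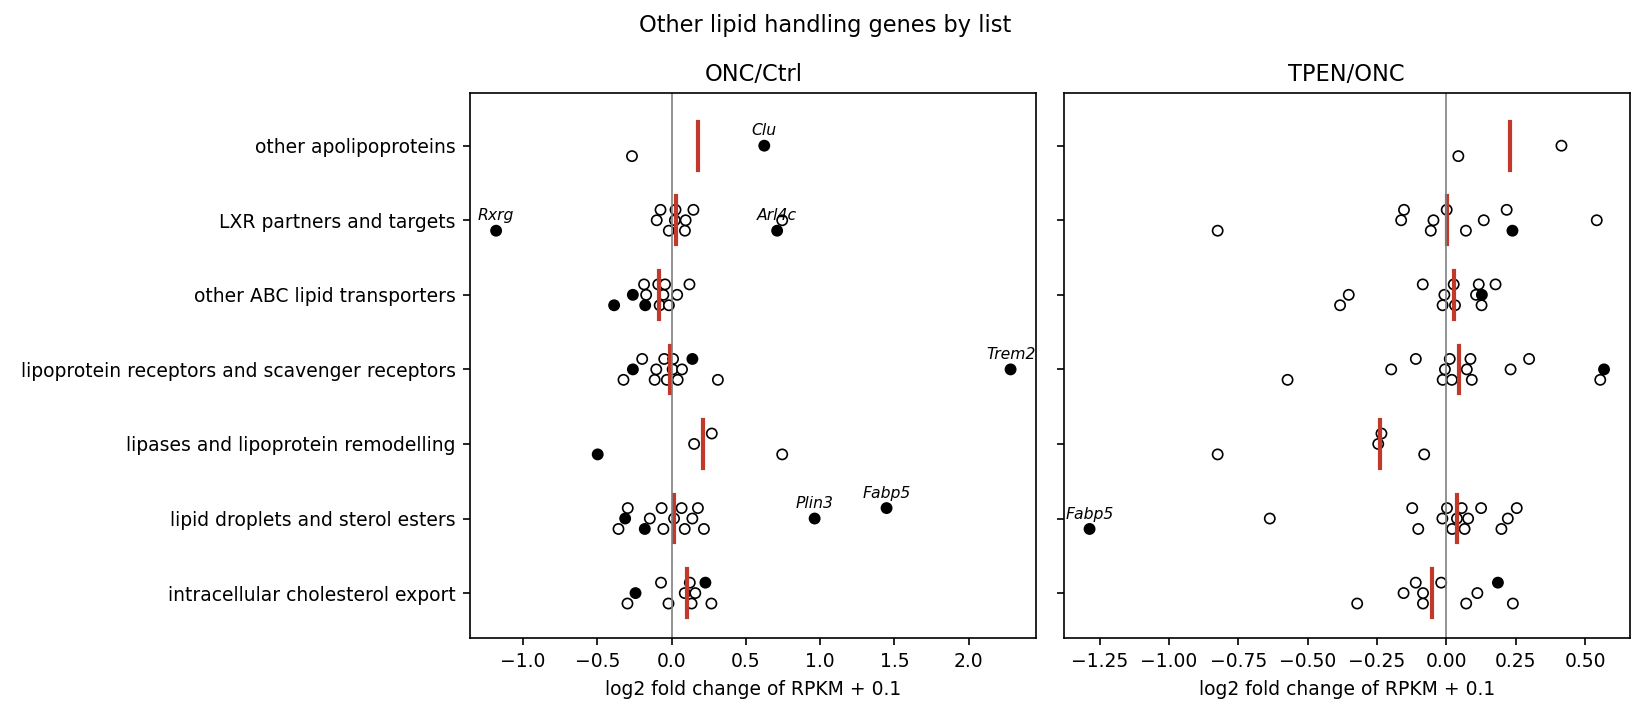
The log2 fold change of RPKM + 0.1 (x axis, each panel with its own scale) of every tested gene of the 7 lists of other lipid handling genes (y axis) in ONC/Ctrl and TPEN/ONC. Each point is a gene, shifted vertically only to part the points. Filled points passed an adjusted p under 0.05, red lines are list medians, and named genes also changed at least 1.5-fold. The ONC/Ctrl medians of the lists span -0.09 to 0.21, and those of TPEN/ONC span -0.24 to 0.23. The values 0.21 and -0.24 are medians of only 4 lipase and remodelling genes, and 0.23 of only 2 apolipoprotein genes. Fabp5 is the one named gene in both panels (1.45 and -1.29).

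To show the sequence next to these genes, the 250 bases before a RefSeq transcript start (GRCm38.p6 table, sense strand, 5′ to 3′) are given for Abca1, whose window held the only match of the motifs searched, and for Apoe and Plin2, which rose in ONC/Ctrl and fell in TPEN/ONC and have none. Of the 8 listed members, 6 had an entry. LXR pairs with a retinoid X receptor on direct repeats spaced by 4 bases, and peroxisome proliferator-activated receptors on repeats spaced by 1 base. Searched on both strands were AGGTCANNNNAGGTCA and the looser NGGTNANNNNNGGTNA for the first, and AGGTCANAGGTCA and the looser NGGTNANNGGTNA for the second, with the looser forms including the strict ones. The looser forms were chosen with the known LXR element of Abca1 in mind. They stood in 0.621% and 0.935% of the 32851 promoters of the same length, and the strict forms in 0.0152% and 0.0335%. The match in Abca1, in capitals, was GGGTTACTACCGGTCA on the opposite strand and began 67 bases before the start. These are matches of letters, not sites shown to be bound, and the other windows hold no such letters.
Abca1, chr4:53159896-53160145, minus strand: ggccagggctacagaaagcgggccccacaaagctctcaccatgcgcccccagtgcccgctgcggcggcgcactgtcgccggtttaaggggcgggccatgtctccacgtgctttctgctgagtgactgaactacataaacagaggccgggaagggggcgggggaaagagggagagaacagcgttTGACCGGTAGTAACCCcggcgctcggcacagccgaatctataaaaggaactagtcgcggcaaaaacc
Apoe, chr7:19699189-19699438, minus strand: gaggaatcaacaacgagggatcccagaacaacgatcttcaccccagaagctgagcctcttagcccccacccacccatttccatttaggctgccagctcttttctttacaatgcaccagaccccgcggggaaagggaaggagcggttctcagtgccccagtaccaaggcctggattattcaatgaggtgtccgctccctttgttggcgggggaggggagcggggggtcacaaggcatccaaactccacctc
Plin2, chr4:86670060-86670309, minus strand: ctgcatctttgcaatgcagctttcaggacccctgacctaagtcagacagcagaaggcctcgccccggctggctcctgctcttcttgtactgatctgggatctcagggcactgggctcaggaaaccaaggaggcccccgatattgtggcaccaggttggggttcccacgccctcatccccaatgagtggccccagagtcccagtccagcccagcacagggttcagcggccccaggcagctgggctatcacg

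Over the 9 libraries, the genes of most like pattern were found by the root mean square difference of mean-centred log2(RPKM + 0.1) values, over 12142 genes whose mean reached 1 RPKM. For Apoe these were Map1a (0.069), a neuronal microtubule gene, Stk10 (0.074) and Basp1 (0.078), a gene of growing axons. Map1a was at 13.8 ± 0.112, 21.1 ± 0.349 and 15.0 ± 0.698 RPKM in Ctrl, ONC and TPEN (SD, n = 3). For Plin2 they were H2-Q4 (0.37), Fabp5 (0.38) and Grn (0.42), the last coding for the lysosomal protein progranulin, and for Abca1 they were Vps13c (0.065), Kdm5a (0.066) and Cirh1a (0.066). H2-Q4 belongs to a family of near-identical genes, so its reads are uncertain.

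The markers of microglia and macrophages changed in the same direction as Apobr, Plin2 and Apoe in ONC/Ctrl and TPEN/ONC. Of these members, only Apobr was also higher in TPEN/Ctrl, as the markers were. Of the 16 listed markers, 14 were in the fit. The filter takes the mean of all 9 libraries, so a marker low in Ctrl can enter the fit through higher levels in the crush groups. The counts of these markers are therefore a description, not a test. Of these 14, 14 rose in ONC/Ctrl, with a median of 2.94 on the log2 scale and up to 4.95 for Lyz2. In TPEN/ONC 9 of them fell, with a median of -0.93 and down to -2.09 for Lyz2. In TPEN/Ctrl 14 were still higher, with a median of 1.88. Apobr rose more in ONC/Ctrl than 13 of the 14 and fell more in TPEN/ONC than 13 of the 14, Plin2 rose more than 1 of the 14 and fell more than 12, and Apoe rose less than any of them and fell less than 12 of them. These ranks include near ties and were taken only with the pseudocount of 0.1. In ONC/Ctrl Itgam was at 3.68 (SE 0.099) beside 3.73 (SE 0.14) for Apobr. In TPEN/ONC Cd14 was at -1.53 (SE 0.25) beside -1.54 (SE 0.25) for Plin2. In TPEN/Ctrl, where all 14 markers were higher, Apoe and Plin2 differed from Ctrl by 0.05 and 0.08. None of the 16 listed markers was at 0 in every library of a group. The summed RPKM of 5 listed astrocyte markers was 31.2 to 33.4 in Ctrl, 48.1 to 49.6 in ONC and 42.2 to 44.4 in TPEN, and followed Gfap, at 2.79 ± 0.0524, 22.2 ± 0.606 and 14.4 ± 0.885 RPKM (SD, n = 3), while Aqp4 was lower in ONC (-0.32 in ONC/Ctrl, limma adjusted p = 0.0100). The sum of 10 Müller glia markers was 405 to 420, 380 to 382 and 330 to 349 RPKM. Its most abundant genes, Glul and Rlbp1, fell in ONC/Ctrl (-0.57 and -0.18), while Vim was at 19.0 ± 0.774, 57.1 ± 1.46 and 44.0 ± 3.10 RPKM (SD, n = 3). For 10 listed RGC markers the sum was 334 to 344, 350 to 371 and 270 to 282 RPKM, most of it from Nefl, at 258 ± 3.13, 264 ± 7.70 and 198 ± 6.85 RPKM (SD, n = 3). Of the 7 RGC markers in the fit, 3 rose in ONC/Ctrl and 0 fell by limma. Those that rose were Stmn2 (0.77, limma adjusted p = 0.00322), Nefm (0.28, 0.00111) and Sncg (0.23, 0.0458), and Isl1 was at -0.33 (0.0705). In TPEN/ONC 3 fell, Nefl (-0.42, limma adjusted p = 6.3e-05), Nefm (-0.42, 3.8e-04) and Sncg (-0.34, 0.0161), and 1 rose. That was Thy1, the gene of the sorted surface protein CD90 (0.40, limma adjusted p = 0.00587). Thy1 was also higher in TPEN/Ctrl (0.58, limma adjusted p = 3.2e-04). The part of these cell types in the changes of Apoe, Apobr, Plin2 and Lrp1 was not tested.

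**Figure D4:**
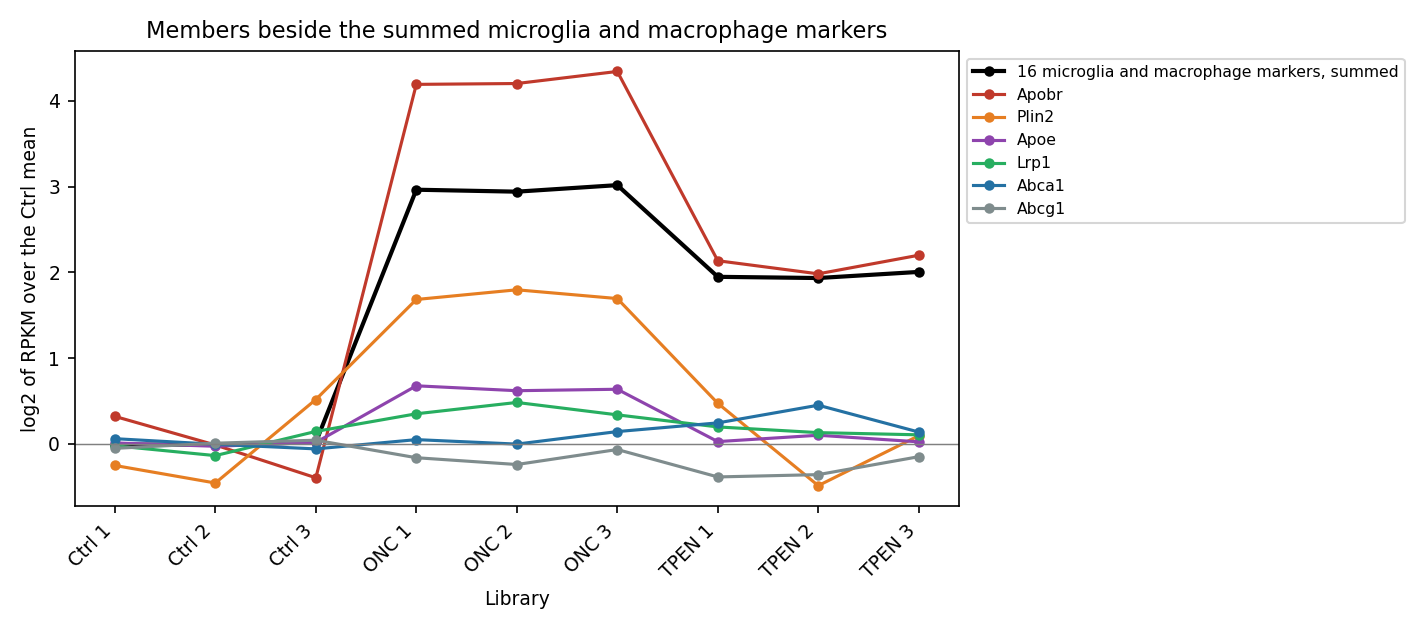
The log2 of the RPKM over the Ctrl mean (y axis) in each of the 9 libraries (x axis) for 6 members and for the sum of 16 microglia and macrophage markers (black). Lines join libraries only to guide the eye. The marker sum stays well above Ctrl in TPEN, as does Apobr, while Apoe and Plin2 lie near their Ctrl level there.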

How the data were processed

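Cells sorted as RGCs from 3 groups of 3 libraries (Ctrl, ONC, TPEN) were measured by RNA-seq with a stranded kit that carries molecular identifiers. Reads were trimmed with Trimmomatic 0.36 per the labels and mapped by the authors to GRCm38/mm10 with STAR. The counting program, the annotation, and whether identifiers were collapsed or strand was used are not given in the sources used here. The authors deposited RPKM values, reads scaled to exon length and library size, and 9 columns of log2 fold changes, p-values and FDRs of their own comparisons, which were not used. Each value was 100% a whole multiple of 1 read (tolerance 0.001 of a read), which gave reads and totals. Confidence intervals are those of limma and rest on the spread between libraries.

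limma 3.58.1 (R 4.3.3), with a mean-variance trend, was fitted to log2(RPKM + 0.1) of all 9 libraries for 13566 genes, with Benjamini-Hochberg adjustment over all of them. DEGs also changed at least 1.5-fold. Tested on simulated data for ONC/Ctrl (13575 genes), it called 36 of 50 genes changed 1.5-fold, 47 of 50 changed 2-fold and 8 of 13375 unchanged genes. The changed genes were drawn only from those with a mean of at least 1 RPKM. The recovery of lower genes, such as Nr1h3 and Pltp, was thus not measured. Within each group, every pair of libraries differed beyond sampling noise, and all were kept. The members and gene lists were chosen with earlier results of these data known. Named were the members, of each list every DEG in ONC/Ctrl or TPEN/ONC or the 2 genes of smallest p in ONC/Ctrl, and 3 genes of like pattern for Apoe, Abca1 and Plin2. Other genes named in counts, and the ratios, were chosen after their values were seen. Alternatives were a pseudocount of 1, no filter or a mean of at least 1 RPKM, quantile normalization, the 6 libraries compared, a replicate block, voom on whole reads and leaving out each library. For Lpl, combinations with no filter were added after seeing the data.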

Additional observations from a re-analysis of the deposited data

How the results depend on the processing

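Apoe, Apobr and Plin2 kept their direction and an adjusted p under 0.05 in ONC/Ctrl and TPEN/ONC under every alternative in which they were fitted. Without single libraries the log2 fold changes ranged from 0.63 to 0.66 and -0.62 to -0.58 (Apoe), 3.61 to 3.85 and -2.06 to -1.97 (Apobr) and 1.45 to 1.86 and -1.73 to -1.32 (Plin2). The fall of Apoe in TPEN/ONC stayed past the test but was under 1.5-fold after quantile normalization and without ONC replicate 1, TPEN replicate 1 or TPEN replicate 3, so 2 to 3 members were downregulated DEGs there. At an adjusted p under 0.05 at any fold, 1 member was lower in TPEN/Ctrl (Abcg1). Reversals concerned differences that had not passed. Nr1h3 in TPEN/Ctrl was 0.0081 with a pseudocount of 1 and -0.20 to 0.29 without single libraries, with 0.046 without Ctrl replicate 2 and 0.29 without TPEN replicate 1. Plin2 in TPEN/Ctrl was -0.18 after quantile normalization, -0.0063 and -0.090 without Ctrl replicates 1 and 2, and -0.11 (without TPEN replicate 1) to 0.33 without single libraries. Pltp in TPEN/Ctrl ranged from -0.35 to 0.19 (without Ctrl replicate 3), with 0.038 and 0.073 without TPEN replicates 2 and 3. Arl4c in TPEN/ONC ranged from -0.15 to 0.0054 (without ONC replicate 1) and Mgll from -0.22 to 0.024 (without ONC replicate 3). The cause was not tested.

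Over the 7 lists, ONC/Ctrl had 5 higher and 1 lower DEGs, TPEN/ONC 0 and 1, and TPEN/Ctrl 3 and 0. The lists held 2, 11, 12, 14, 4, 15 and 10 tested genes, with Pltp in more than 1 of them but counted once. Of all genes tested, 4.58% were higher and 0.752% lower DEGs in ONC/Ctrl. These shares were 0.818% and 1.21% in TPEN/ONC, and 3.45% and 0.457% in TPEN/Ctrl. With a pseudocount of 1 the lists had 3 higher in ONC/Ctrl and 1 in TPEN/Ctrl. With a mean of at least 1 RPKM, where fewer genes were tested, they had 3 and 1, with 0 lower in ONC/Ctrl. Without a filter the ONC/Ctrl count of higher genes was 9, and the TPEN/ONC count of lower genes 4. Quantile normalization gave 1 higher in TPEN/ONC and 2 lower in TPEN/Ctrl, the 6 libraries compared 1 lower in TPEN/Ctrl, and voom 1 higher and 3 lower in TPEN/ONC and 2 lower in TPEN/Ctrl. Without single libraries, 1 to 2 were lower in ONC/Ctrl, 0 to 1 higher in TPEN/ONC and 0 to 1 lower in TPEN/Ctrl. Over all genes, ONC/Ctrl had 622 upregulated and 102 downregulated DEGs, and 525 and 184 after quantile normalization, which moved the median of all genes from 0.017 to -0.033.

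Samples of the same replicate number did not deviate together (9 correlations of -0.062 to 0.027), so no pairing by number was seen. This cannot show how the samples were handled, and whether the numbers pair them is not known here. With a replicate block, Apoe was 0.64 in ONC/Ctrl (limma adjusted p = 2.1e-05) and -0.59 in TPEN/ONC (limma adjusted p = 1.3e-04), and no call on a member changed. Mgll in ONC/Ctrl and in TPEN/Ctrl, Abca4 in TPEN/ONC and Ppargc1a in TPEN/ONC lost their call.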
